A study of Homo sapiens with 4 samples.

Results

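The zinc finger genes of chromosome 19 were taken as all genes on that chromosome whose symbol begins with ZNF and a digit and whose deposited gene counts summed to at least 20 over the 4 libraries, with 2 symbols left out in advance, of which 1 lies on the chromosome. They numbered 247 of 77973 genes in the table, and of 16780 genes past the same minimum. By symbol alone there were 300, of which 52 were under the minimum and 15 of those had no read. The 247 comprised 225 genes proper, 16 antisense or divergent transcripts, 4 readthrough genes and 2 pseudogenes. ZNF285BP and ZNF524 sat exactly at the minimum with 10 reads each, and 5 genes fell just under it.

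Transcripts were measured by PacBio Iso-Seq, long-read sequencing of complementary DNA from polyadenylated RNA, in cortical neurons (i3N) derived from the human pluripotent stem cell line KOLF2.1J, which is an established line made by reprogramming. All cells carried doxycycline-inducible human NGN2, which drives the conversion to neurons, and a constitutive dCas9-BFP-KRAB protein for CRISPR interference (CRISPRi), and were puromycin-selected stable pools rather than clones, made with a lentiviral guide RNA that was either non-targeting or directed at TDP-43, an RNA-binding protein encoded by TARDBP. The 4 libraries are labelled Control, TDP-43 CRISPRi (called the knockdown here), 5-Azacytidine (azacytidine) and the combination of both treatments (both). 5-Azacytidine was given at 5 µM for 72 hours, after neuronal spheroids had been plated on day 8. The labels do not name the guide of the libraries without TDP-43 CRISPRi. There was 1 library per group, so a test between 2 libraries compares those libraries and not the conditions, and the harvest day of each library was not given.

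Most zinc finger genes of this chromosome encode proteins with a KRAB domain followed by an array of C2H2 zinc fingers. The fingers bind DNA, often within transposable elements, and the KRAB domain recruits the corepressor TRIM28, which brings the histone methyltransferase SETDB1 and DNA methylation to the site. The genes arose by repeated tandem duplication and lie in clusters of near-identical copies. 5-azacytidine is a cytidine analogue that traps DNA methyltransferases and lowers DNA methylation in dividing cells.

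Deposited counts were all even, so 2 counts were taken as 1 read, and reads are given throughout. The libraries held 595158 gene reads in the control, 767621 in the knockdown, 466337 with azacytidine and 477622 with both. TARDBP had 104 reads in the control, 72 in the knockdown, 73 with azacytidine and 43 with both, a log2 knockdown ratio of -0.78 without azacytidine (adjusted p = 0.00681, two-sided exact binomial test) and -0.73 with it (adjusted p = 0.0738). The 11 neuron markers had reads in all libraries and summed to 3076 CPM (reads scaled to library size) in the control, 3273 in the knockdown, 3345 with azacytidine and 2357 with both. Of 10 progenitor and proliferation markers tested, 7 were called lower with azacytidine, and the 11 listed summed to 1546 CPM in the control, 1317 in the knockdown, 224 with azacytidine and 195 with both. PAX6, the progenitor transcription factor, had 290, 313, 3 and 4 reads in that order, and of the list CDK1 and HES1 were at 0 in the library with both. The pluripotency marker NANOG had 0, 0, 2 and 0 reads and the glial marker AQP4 had 0 in every library. In bulk RNA, fewer cells of a type and less RNA per cell cannot be told apart. The part of the lower progenitor markers in the results below was not tested.

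The family took up a similar share of gene reads in every library. That share was 0.941% in the control (95% Wilson interval 0.917 to 0.966), 0.974% in the knockdown (interval 0.952 to 0.996), 0.987% with azacytidine (interval 0.960 to 1.02) and 0.891% with both (interval 0.864 to 0.918). The library with both treatments was thus the lowest, and its interval did not overlap those of the knockdown and azacytidine libraries. Intervals here and below cover counting error only. Zinc finger genes of other chromosomes, 260 past the same minimum, took 1.54%, 1.58%, 1.51% and 1.56%. Single members were sparsely read: over the 4 libraries a member had between 10 and 389 reads, with a median of 76. With a mean of at least 5 reads required, 230 members were tested and 17 were not.

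The members with the most reads were ZNF91, ZNF43, ZNF254, ZNF714, ZNF606, ZNF302, ZNF875, ZNF708, ZNF146 and ZNF260, which lie in 4 of the 10 clusters described below. ZNF91, whose protein binds SVA retrotransposons, had 84 reads in the control, 137 in the knockdown, 95 with azacytidine and 73 with both. ZNF606 had 59, 77, 55 and 67 reads, ZNF302 66, 70, 75 and 44, and ZNF875 60, 71, 65 and 43. None of these 4 was called in any comparison. Counts of reads are not corrected for library size, so the knockdown library, the deepest, has the highest raw numbers for many members.

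Log2 ratios are of reads scaled to library size, with 0.5 reads added. A member was called when the exact binomial test gave an adjusted p under 0.05 (Benjamini-Hochberg over all 13789 genes tested), the log2 ratio was at least 1 in size, and both of the pairs compared, which have no library in common, gave the same direction. For azacytidine those pairs were azacytidine against control and both against knockdown. By this rule 2 members were higher and 7 lower with azacytidine, 9 of 230, where 8.75% of all genes tested were called (2.56% higher and 6.19% lower). The share of members called was below that of all genes. Full-length counts alone gave 0 calls among the 113 members that could be tested with them. A DESeq2 model of both treatments without interaction also gave 0 calls, and the same model in edgeR gave 10. The share of all genes called was not taken for these alternatives. The 7 lower members were ZNF90, ZNF724, ZNF43, ZNF85, ZNF730, ZNF536 and ZNF814, and the 2 higher were ZNF414 and ZNF577. None of the 11 antisense or divergent and 3 readthrough members tested was called.

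Of the 7 lower members, 5 lay in 1 stretch of the chromosome. All ZNF genes of chromosome 19, counted or not, were joined into clusters where neighbours start within 0.5 Mb of each other, which gave 10 clusters of at least 5 genes. Cluster 4 spans chr19:19668796-24129968 (hg38) on the short arm beside the centromere and holds 43 genes, 28 of them members, all tested. Of all gene reads, its members took 0.175% in the control (interval 0.165 to 0.186) and 0.187% in the knockdown (interval 0.177 to 0.196). With azacytidine they took 0.141% (interval 0.130 to 0.152), and in the library with both 0.0798% (interval 0.0722 to 0.0882). The members outside it took 0.766%, 0.787%, 0.847% and 0.811%. The cluster was therefore lower in both azacytidine libraries, and lowest with both treatments, while the other members were higher in both azacytidine libraries than in the control. By full-length counts the other members took 1.10% in the control, 1.12% with azacytidine and 1.07% with both, so that direction turned for the library with both.

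**Figure D1:**
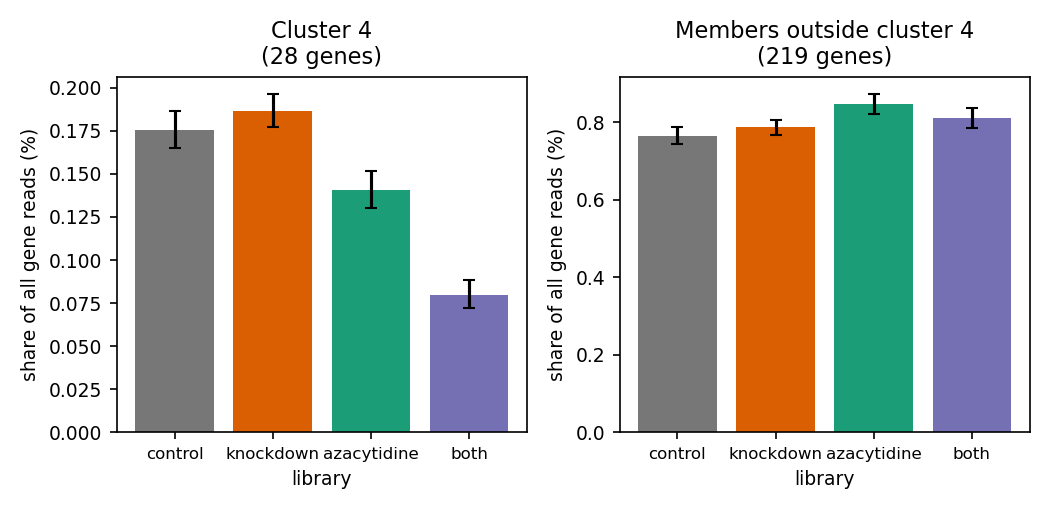
Share of all gene reads (percent, from 0) taken by the 28 members of cluster 4 (left) and by the 219 other members (right) in each library, with 95% Wilson intervals for counting error; there is 1 library per group. Cluster 4 is at 0.175% in the control and 0.0798% with both treatments, and the other members lie between 0.766% and 0.847%.

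The median log2 azacytidine ratio of cluster 4 was -0.54 without the knockdown and -1.48 with it. Over the 202 members tested elsewhere it was 0.15 and -0.08, and over all genes 0.02 and -0.02. At an adjusted p under 0.05 in a single pair, 8 of the 28 were lower without the knockdown and 19 with it, against 12.7% and 19.5% of all genes tested, and 4 and 15 of the 202 members elsewhere. In the same pairs 8 and 16 of all 230 members were higher (8.78% and 14.5% of all genes), of which cluster 4 held 1 and 0. In 19 of the 28, both azacytidine libraries lay below both others in reads scaled to library size, against 22.3% of the members elsewhere and 27.9% of all genes. The library with both treatments was the lowest of the 4 in 22 of the 28 (78.6%), against 30.7% of the members elsewhere and 26.8% of all genes. The clusters were defined by position alone, but cluster 4 was singled out after its values were seen, so these counts are a description.

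**Figure D2:**
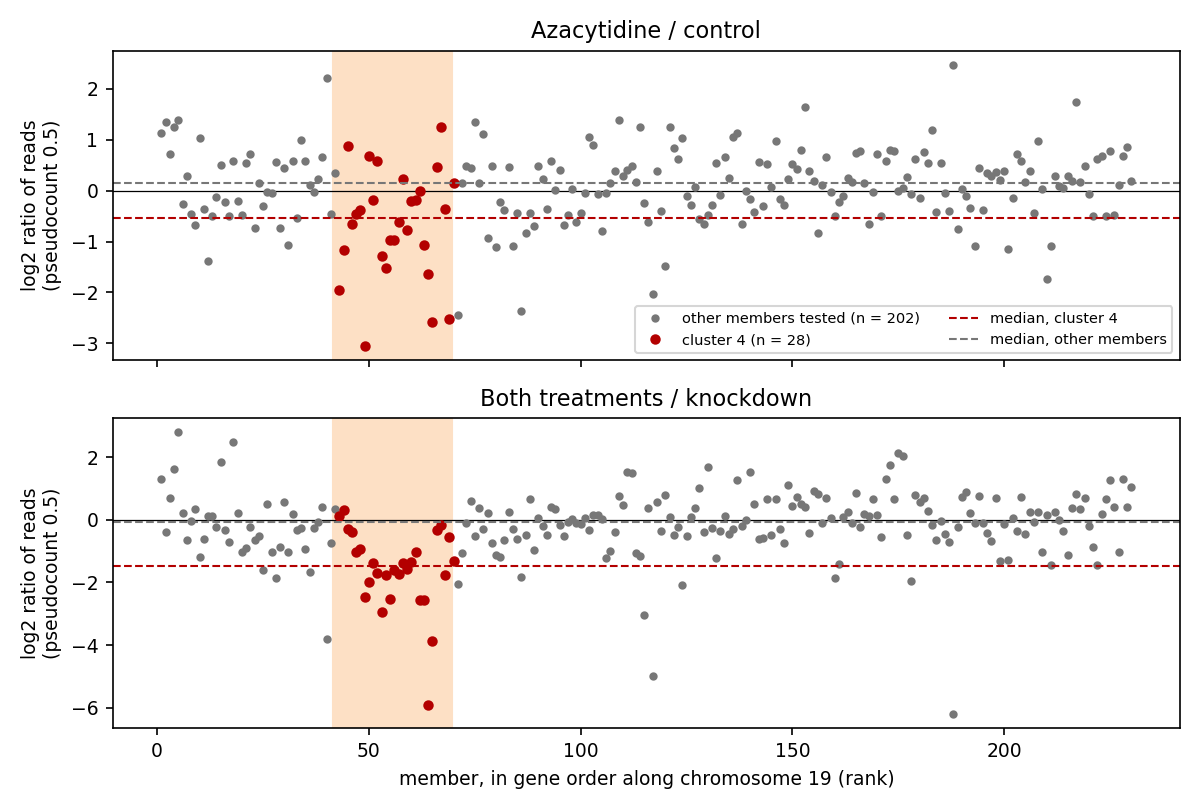
Log2 ratio of reads with against without azacytidine for the 230 members tested, in gene order along chromosome 19 (rank), without the knockdown (top) and with it (bottom); red points and the shaded band are the 28 members of cluster 4, dashed lines are medians. The cluster 4 median is -0.54 in the upper panel and -1.48 in the lower, and the median of the other members is 0.15 and -0.08.

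The medians of the 9 other clusters lay above those of cluster 4 in both pairs. In the pair without the knockdown, cluster 9 had a median of 0.54 over 14 members and cluster 8 of 0.16 over 36. In the pair with it, the medians were 0.62 in cluster 9, 0.16 in cluster 8 and -0.56 in cluster 3 over 24. Cluster 3 was thus the next lowest in that pair, and it had 0.14 in the other, where cluster 6 was next lowest with -0.37 over 28 members. Median transcript length was 3450 bases in cluster 4 and 3674 bases in the members elsewhere. Of 12 genes in the span of cluster 4 that are not members and could be tested, 1 was called lower with azacytidine, the unnamed gene ENSG00000267886 with 71, 70, 14 and 13 reads, and 6 were lower in the pair with the knockdown, where the median of the 12 was -0.96. In the pair without it, 2 were lower and 1 higher, with a median of -0.08. Over all genes 12.7% were lower without the knockdown and 19.5% with it.

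Few reads of ZNF90 and ZNF724 were left with azacytidine. ZNF90 was read 25 times in the control and 28 times in the knockdown, but 2 times with azacytidine and 3 times with both. Its log2 ratio was -3.06 without the knockdown (95% interval -6.47 to -1.35, adjusted p = 0.000608, exact binomial test) and -2.46 with it (-5.01 to -0.96, adjusted p = 0.0018). ZNF724, in the same cluster, had 25, 32, 3 and 1 reads in that order, log2 ratios of -2.57 (adjusted p = 0.00189) and -3.87 (adjusted p = 1.28e-05). In both genes the azacytidine libraries were close to empty and the groups of libraries did not overlap.

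ZNF43 had 80 reads in the control, 188 in the knockdown, 31 with azacytidine and 21 with both, log2 ratios of -1.06 (-1.72 to -0.46, adjusted p = 0.00265, exact binomial test) and -2.56 (-3.32 to -1.94, adjusted p = 3.92e-20). By gene reads its knockdown library stood above the control, at a log2 ratio of 0.98, but this depended on the count type: ZNF43 took 0.0163% and 0.0216% of transcript reads in the control and knockdown, and 0.00901% and 0.00827% of uniquely assigned reads. Outside the cluster, ZNF536, a brain-expressed zinc finger gene without a KRAB domain, had 89, 89, 13 and 14 reads and log2 ratios of -2.44 (adjusted p = 3.2e-10) and -2.06 (adjusted p = 8.51e-08). ZNF814, at the distal end of the long arm, had 53, 78, 20 and 19 reads and log2 ratios of -1.09 (adjusted p = 0.0187) and -1.44 (adjusted p = 0.000146). In all 3 genes both azacytidine libraries lay below both libraries without it.

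These 5 calls also held when reads were taken from the transcript table. That table counts reads that fit a transcript, and it held 70.2%, 65.4%, 72.2% and 65.1% of the gene reads of all members in the control, knockdown, azacytidine and both libraries (63.9%, 58.5%, 68.1% and 60.4% over all genes). ZNF90 had 18, 20, 2 and 1 transcript reads, ZNF724 21, 30, 2 and 1, and ZNF43 62, 97, 24 and 20. ZNF536 had 41, 58, 10 and 8, and ZNF814 45, 59, 11 and 14. Reads assigned to 1 transcript alone were fewer, 18, 17, 1 and 1 for ZNF90 but 14, 1, 2 and 1 for ZNF724, whose knockdown library was then as low as those with azacytidine. They were 19, 20, 11 and 5 for ZNF43, 20, 31, 3 and 6 for ZNF536, and 18, 53, 9 and 11 for ZNF814. ZNF43 took 0.00901% of such reads in the control and 0.00584% with azacytidine, a smaller fall than by gene reads. By transcript reads, 5 of the 207 members tested were called lower and none higher. Gene reads exceeded transcript reads by more than 1.5 times in 89 of the 247 members and in 15 of the 28 of cluster 4.

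The other 2 lower calls were not made from transcript reads. ZNF85 had 40, 27, 11 and 5 gene reads but 15, 13, 10 and 4 transcript reads, and its log2 ratio nearer 0 was -0.37 by transcript reads against -1.52 by gene reads. ZNF730 had 28, 44, 7 and 0 gene reads, at least 9.88-fold lower with both than in the knockdown, but 4, 6, 5 and 0 transcript reads, too few to test. ZNF730 overlaps on its own strand the unnamed gene ENSG00000267886, which was itself called lower. Among all members, 55 overlap another gene past the minimum on the same strand and 128 on either strand, and reads of near-identical copies can be split between genes, so single low-count members are uncertain.

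**Figure D3:**
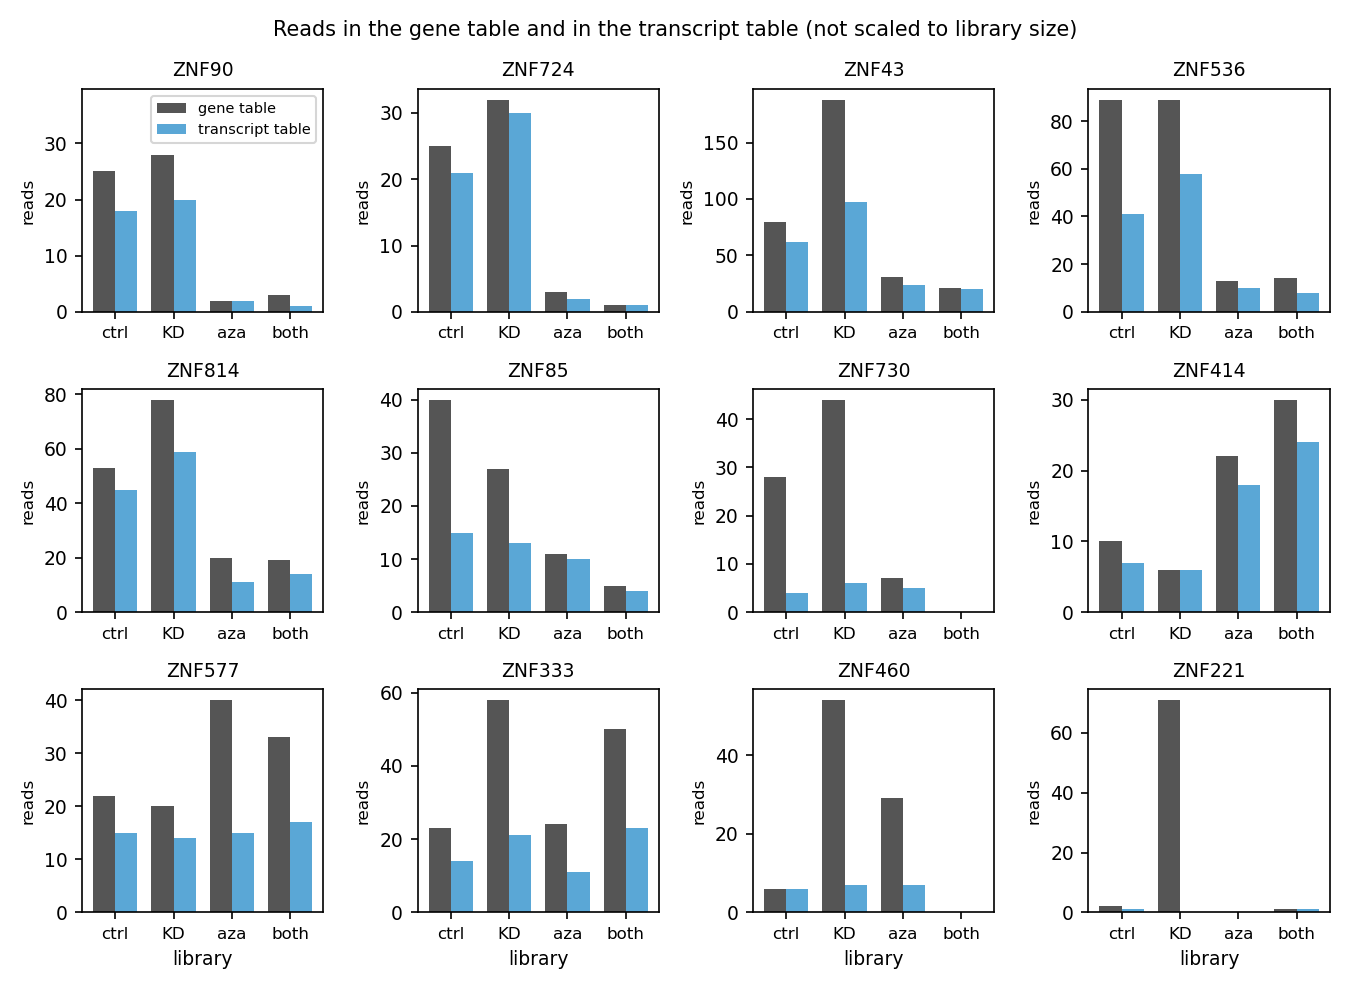
Reads of 12 members in the control (ctrl), knockdown (KD), azacytidine (aza) and combined (both) library, from the gene table (dark) and the transcript table (blue), as counted and not scaled to library size; each panel has its own axis from 0. The upper row and ZNF814 are lower with azacytidine in both tables, while ZNF730, ZNF460 and ZNF221 differ more in gene reads than in transcript reads (ZNF460 in the knockdown: 54 gene reads and 7 transcript reads).

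Promoters of cluster 4 resembled each other in sequence. By median they held fewer CG dinucleotides, the sites of DNA methylation, than those of the other clusters. RefSeq promoter windows of GRCh38.p14, 250 bases before to 50 after the start, were matched by symbol for 218 members. Of the called members, 3 lower ones and 1 higher one are shown, in lower case with each CG in capitals, to show the letters that windows of the cluster share beside a window from elsewhere. ZNF90 lies at chr19:20077750-20078049 on the plus strand, ZNF43 at chr19:21836133-21836432 and ZNF724 at chr19:23250345-23250644 on the minus strand, and ZNF577 at chr19:51887902-51888201 on the minus strand.
ZNF90: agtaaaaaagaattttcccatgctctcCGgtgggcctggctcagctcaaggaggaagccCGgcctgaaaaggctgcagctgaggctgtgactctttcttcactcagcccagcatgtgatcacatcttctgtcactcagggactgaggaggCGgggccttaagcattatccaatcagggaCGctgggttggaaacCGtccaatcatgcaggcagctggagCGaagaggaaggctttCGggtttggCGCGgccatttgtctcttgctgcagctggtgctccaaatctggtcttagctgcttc
ZNF43: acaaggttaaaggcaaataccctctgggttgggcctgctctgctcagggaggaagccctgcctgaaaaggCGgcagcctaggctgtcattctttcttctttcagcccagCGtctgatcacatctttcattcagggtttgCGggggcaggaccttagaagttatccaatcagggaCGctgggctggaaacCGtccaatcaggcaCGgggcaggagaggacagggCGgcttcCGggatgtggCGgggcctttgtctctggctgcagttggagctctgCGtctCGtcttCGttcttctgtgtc
ZNF724: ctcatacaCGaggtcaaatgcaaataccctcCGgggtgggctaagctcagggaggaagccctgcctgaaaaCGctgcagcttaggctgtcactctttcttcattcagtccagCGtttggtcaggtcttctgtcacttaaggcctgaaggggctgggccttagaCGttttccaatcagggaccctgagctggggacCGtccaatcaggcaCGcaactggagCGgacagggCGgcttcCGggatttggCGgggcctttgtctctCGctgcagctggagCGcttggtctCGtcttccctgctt
ZNF577: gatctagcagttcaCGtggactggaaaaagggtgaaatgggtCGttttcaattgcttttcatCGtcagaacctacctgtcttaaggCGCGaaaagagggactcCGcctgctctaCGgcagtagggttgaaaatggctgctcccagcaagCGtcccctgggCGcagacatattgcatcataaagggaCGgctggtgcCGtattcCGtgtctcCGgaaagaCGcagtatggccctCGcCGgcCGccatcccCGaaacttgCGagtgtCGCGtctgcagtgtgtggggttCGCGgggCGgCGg
The windows hold 9, 12, 14 and 25 CG dinucleotides in that order. The ZNF43 window belongs to an inner start of the gene, described below, with 27, 33, 13 and 20 transcript reads. Transcripts from an outer start upstream of this window had 33, 63, 11 and 0. Of the called members not shown, the lower ZNF85, ZNF814, ZNF730 and ZNF536 hold 9, 14, 16 and 21 and the higher ZNF414 holds 22.

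Over 25 windows of cluster 4 the median was 10 CG dinucleotides, against 20 over the members, 24 over zinc finger genes of other chromosomes and 14 over all 35116 windows. The quartiles were 9 and 13 in cluster 4 and 4 and 28 over all windows. The cluster was thus low beside other zinc finger genes and within the middle range of all windows. CG occurred at least once in 100% of the members' windows and 96.0% of all windows. The cluster also shared letters around a CCAAT box. The motif GTCCAATCA, on either strand, was in 21 of 25 windows of cluster 4 (84%), in 9 of 193 windows of members elsewhere and in 0.518% of all windows; it contains the shorter motif CCAAT, which was in all 25, in 47.7% of members elsewhere and in 34.6% of all windows. The longer motif was chosen after the printed windows were read, and a match is a description of letters, not a bound site.

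Within the cluster the relation of CG number to the azacytidine ratio differed between the pairs. Over the 25 with a window, Spearman's rho between CG number and the azacytidine log2 ratio was -0.42 without the knockdown and 0.10 with it, and Pearson's r was -0.51 and -0.04. Over the 179 members elsewhere it was 0.09 and 0.27. The points share libraries and cluster neighbours share sequence, so these values describe genes and are not replicates. Of the members outside cluster 4, the 7 tested ones with GTCCAATCA had median azacytidine ratios of -0.46 and -0.72. The 172 without it had 0.15 and -0.05. All of the 7 with the motif but ZNF555 lie in cluster 3, whose medians were 0.14 and -0.56. Cluster 3 also holds members without the motif, and medians by motif were not taken within it. Within cluster 4, the 21 with the motif had median azacytidine ratios of -0.98 and -1.72, and the 4 without it 0.02 and -1.36. The part of the motif in these ratios was not tested. The ratios of the 7 outside cluster 4 ran from -1.06 (ZNF20) to 2.22 (ZNF490) without the knockdown. With the knockdown they ran from -3.82 (ZNF490) to -0.06 (ZNF709).

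Not all of cluster 4 was low. ZNF91 had log2 azacytidine ratios of 0.47 and -0.33, with neither pair past the threshold (adjusted p = 0.105 and 0.214, exact binomial test). ZNF506 had 29, 53, 44 and 29 reads and was higher in the pair without the knockdown at a log2 ratio of 0.89 (adjusted p = 0.0457). ZNF675 had 11, 7, 22 and 4 reads. Among the frequently read members of the cluster, ZNF714 had 102, 109, 42 and 24 reads with ratios of -0.98 and -1.59, just short of the required size in 1 pair, and ZNF254 had 75, 109, 68 and 29 with 0.15 and -1.32. ZNF254 and ZNF708 (52, 102, 50 and 26 reads) were low in the library with both treatments and not in that with azacytidine alone.

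The shortfall with both treatments shows as well in the pair both against azacytidine, where the median log2 knockdown ratio of cluster 4 was -0.92. Without azacytidine it was -0.04, a value near 0 whose sign turned under other filters and count types, reaching 0.24 among members whose mean was 20 reads or more. The library with both enters this pair and the azacytidine pair with the knockdown, so these values are not independent of those above, and 1 library decides them. In the same pair 10 of the 11 neuron markers had a ratio below 0, with a median of -0.44, and 4 were lower and 1 higher at an adjusted p under 0.05. Of all genes tested in that pair, 48.9% had a ratio below 0, 4.22% were lower and 5.99% higher. With azacytidine in the presence of the knockdown, 4 neuron markers were lower and 1 higher (19.5% and 14.5% of all genes), with a median of -0.13. The part of the neuron markers in the cluster 4 values was not tested.

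ZNF43 also differed in which of its transcripts were read. The transcript ENST00000594012.5, of 7 exons and 5584 bases on the minus strand, made up 20 of 62 transcript reads in the control (32.3%, Wilson interval 22.0 to 44.6) and 35 of 97 in the knockdown (36.1%, 27.2 to 46.0). It had 0 of 24 with azacytidine, which allows up to 12.5%, and 0 of 20 with both, which allows up to 15%. The drop was called in both pairs (adjusted p = 0.0241 and 0.0148, two-sided Fisher's exact test over 15834 transcripts). It was the only usage call of azacytidine among 188 transcripts of 68 members tested, where 1.10% of all transcripts were called. Only 4 of its reads were full-length and 5 were assigned to it alone, and with either of those counts no member transcript was called.

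This transcript begins at position 21852017 of chromosome 19, 15585 bases upstream of the end of the promoter window printed above, which belongs to an inner start. Transcripts from the outer start together had 33 reads in the control, 63 in the knockdown, 11 with azacytidine and 0 with both, and those from the inner start 27, 33, 13 and 20. Reads from the outer start that were assigned to 1 transcript alone numbered 10, 12, 6 and 0, and from the inner start 7, 7, 5 and 5. The grouping by start was made after the usage call was seen and was not tested. With both treatments, all 20 transcript reads of ZNF43 came from the inner start.

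**Figure D4:**
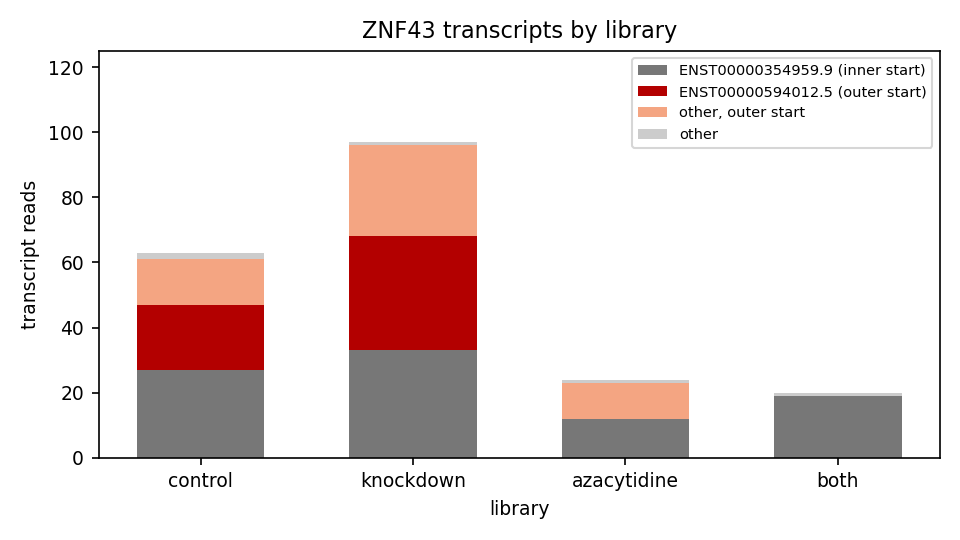
Transcript reads of ZNF43 in each library, stacked by transcript: the inner-start transcript ENST00000354959.9 (grey), ENST00000594012.5 (red), other transcripts from the outer start (orange) and the rest (light grey). ENST00000594012.5 has 20 reads in the control, 35 in the knockdown and 0 in either azacytidine library.

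The 2 members higher with azacytidine lie in other clusters. ZNF414, in cluster 2, had 10 reads in the control, 6 in the knockdown, 22 with azacytidine and 30 with both, log2 ratios of 1.39 (adjusted p = 0.038, exact binomial test) and 2.80 (adjusted p = 2.07e-06). Its transcript reads were 7, 6, 18 and 24, of the same order, with adjusted p = 0.112 in the pair without the knockdown. ZNF577, in cluster 8, had 22, 20, 40 and 33 gene reads and ratios of 1.14 (adjusted p = 0.0141) and 1.28 (adjusted p = 0.00764). Its transcript reads were 15, 14, 15 and 17 and gave no call, while its uniquely assigned reads were 4, 6, 10 and 10 and its full-length reads 7, 3, 11 and 10. It overlaps ZNF649 on the same strand.

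TDP-43 knockdown, read from knockdown against control and from both against azacytidine, gave 1 call among the 230 members, a higher one, where 0.754% of all genes were called (0.392% higher and 0.363% lower). ZNF333 had 23 reads in the control, 58 in the knockdown, 24 with azacytidine and 50 with both. Its log2 ratio was 1.07 in each pair (adjusted p = 0.0182 and 0.0279, exact binomial test). Both knockdown libraries lay above both others, but the transcript reads were 14, 21, 11 and 23, with a smaller log2 ratio of 0.38 and no call. In the edgeR model of both treatments its adjusted p was 0.441. In a single pair at an adjusted p under 0.05, knockdown against control gave 11 higher members and 3 lower ones (8.48% and 4.24% of all genes), and both against azacytidine gave 5 and 7 (5.99% and 4.22%). The median log2 knockdown ratio of the members was 0.10 without azacytidine and -0.11 with it, and that of all genes was 0.03 in both pairs. No usage call for the knockdown fell on a member, where 0.688% of all transcripts were called.

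Genes whose knockdown ratio turned sign with azacytidine, past the same thresholds in each pair, made up 0.413% of all genes (0.247% higher without azacytidine and 0.167% lower). Among members ZNF460 alone was called so, higher without azacytidine, with 6, 54, 29 and 0 reads in the order control, knockdown, azacytidine, both. The transcript reads were 6, 7, 7 and 0, so most of the 54 and 29 reads were in no transcript, and on the opposite strand ZNF460-AS1 overlaps it. ZNF221, chosen after its values were seen, had 2, 71, 0 and 1 gene reads and 1, 0, 0 and 1 transcript reads. Its single high library likewise held no transcript read.

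Members known to bind transposable elements were listed separately. Of 9 listed, 7 were members, and ZNF676 and ZNF534 were under the count minimum. None was called in any comparison. ZNF93, which binds LINE elements, had 34, 37, 20 and 12 reads and lies in cluster 4, with azacytidine ratios of -0.46 and -1.02 (adjusted p = 0.495 and 0.0749, exact binomial test). ZNF611 had 29, 44, 13 and 53 reads and a log2 knockdown ratio of 2.01 in the presence of azacytidine (adjusted p = 2.27e-05) and 0.34 without (adjusted p = 0.637). The rest had 39, 61, 20 and 36 reads (ZNF649), 45, 37, 36 and 40 (ZNF765), 4, 10, 11 and 9 (ZNF808), and 31, 38, 40 and 42 (ZNF468).

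The corepressor pathway through which KRAB proteins act was measured in 25 listed genes. UHRF1, which guides maintenance of DNA methylation in dividing cells, was the 1 gene called, with 100, 147, 8 and 2 reads and azacytidine log2 ratios of -3.27 and -5.31 (adjusted p = 2.73e-15 and 8.82e-28, exact binomial test). In the pair without the knockdown 5 of the 25 were lower and none higher at an adjusted p under 0.05, and in the pair with it 7 were lower and 3 higher. Over all genes 12.7% and 19.5% were lower and 8.78% and 14.5% higher in these pairs, and 8.75% were called against 1 of the 25 here. TRIM28, the corepressor itself, had 63, 55, 43 and 71 reads and a ratio of -0.25 without the knockdown and 0.94 with it (adjusted p = 0.608 and 0.00197). SETDB1 had 65, 86, 38 and 50 reads, with neither azacytidine pair past the threshold. DNMT1, the maintenance methyltransferase, had 81, 130, 47 and 81 reads. UHRF1 is also a gene of dividing cells, and the proliferation markers MKI67 (142, 154, 2 and 1 reads) and TOP2A (109, 133, 3 and 2) were low in the same libraries.

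Unannotated transcripts made up more of the reads of these genes than of genes at large. They numbered 144 in 89 members, of 10347 in the whole annotation. Their share of the members' transcript reads was 11.0% in the control (Wilson interval 10.1 to 12.0), 11.4% in the knockdown (interval 10.5 to 12.3), 12.4% with azacytidine (interval 11.3 to 13.6) and 13.8% with both (interval 12.5 to 15.1). Over all genes it was 7.08%, 6.72%, 7.97% and 8.97%. The share was highest with both treatments among members and among all genes, and among members its interval overlapped that of the azacytidine library. The full-length share of the members' transcript reads moved too, at 34.8%, 26.6%, 43.3% and 37.5%, and its part in the order was not tested.

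**Figure D5:**
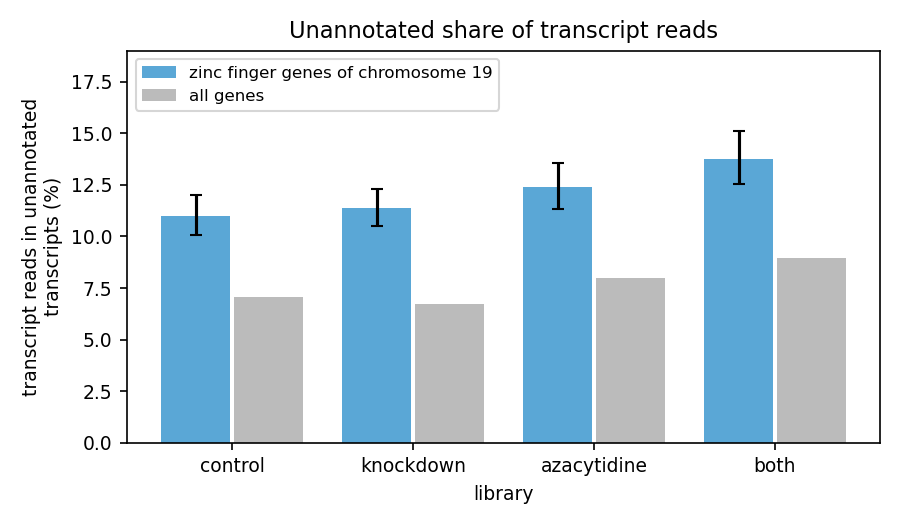
Percent of transcript reads assigned to unannotated transcripts in each library for the zinc finger genes of chromosome 19 (blue, with 95% Wilson intervals for counting error) and for all genes (grey). The members lie between 11.0% and 13.8%, above all genes in each of the 4 libraries.

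The unannotated transcripts were mostly variants of known gene structures. Of the 144, 11 had an exon in sequence with no annotated exon, 72 had no such exon but an unannotated intron, and 61 used annotated introns only. All 144 had a full-length read and a uniquely assigned read, and 78 had under 10 reads in all. The unannotated exons formed 12 loci in 10 members, with 1 to 15 reads each, too few to test; of all loci tested, 4.73% were called for the knockdown and 1.18% for azacytidine. The locus with the most reads was in ZNF443 at chr19:12440166-12440887 on the minus strand, 722 bases long, with 0 of 12 transcript reads of the gene in the control, 7 of 11 in the knockdown, 4 of 12 with azacytidine and 4 of 7 with both. It was read in the 3 treated libraries and not in the control, where 0 of 12 reads allows up to 25%; it was singled out after its values were seen.

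In some members the annotation missed most of what was read. ZNF404 had all of its 32 transcript reads in unannotated transcripts (100%, Wilson interval 89.3 to 100), 7, 10, 9 and 6 in the libraries in order. The readthrough gene ZNF8-ERVK3-1 had 45 of 46 (97.8%), ZNF888 20 of 24 (83.3%) and ZNF329 82 of 109 (75.2%). ZNF446 had 49 of 70 (70.0%) and ZNF468 86 of 126 (68.3%). In these 6 genes unannotated transcripts held reads in all 4 libraries. The readthrough transcript BambuTx7005 of ZNF8-ERVK3-1, which joins a zinc finger gene to a following gene, spans chr19:58278987-58315652 in 6 exons and had 7, 14, 8 and 7 reads, of which 1 was full-length.

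Isoform shares could be followed in the 68 members with a mean of at least 20 transcript reads. A member had between 1 and 13 transcripts with a read, with a median of 5, and the leading transcript took a median of 60.4% of reads, from 21.2% to 100%. The same transcript led in all 4 libraries in 44 of the 68. In 6 the leading transcript was unannotated: ZNF625-ZNF20, ZNF382, ZNF420, ZNF45, ZNF468 and ZNF329. In ZNF382 that transcript, BambuTx2844 of 4 exons and 5152 bases, took 6 of 21 reads in the control (28.6%), 14 of 34 in the knockdown, 10 of 18 with azacytidine and 14 of 26 with both (53.8%). No usage call was made. In ZNF420 the leading transcript BambuTx2846 had 12 of 32, 16 of 36, 9 of 28 and 10 of 29 reads, or 37.5%, 44.4%, 32.1% and 34.5%.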

How the data were processed

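PolyA RNA of 4 libraries was sequenced by a modified Iso-Seq protocol with the reverse transcriptase MarathonRT, per the labels' protocols. Reads were aligned with minimap2 to hg38, per the file headers, and the deposited annotation names Bambu as its source; their versions are not given in the sources used here. The authors deposited estimated counts per gene, per transcript and for full-length reads, and whole counts of reads assigned to 1 transcript alone. Every value was even to within 0.00031, so counts were halved and rounded to reads.

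Library sizes were scaled by TMM (edgeR 4.0.16, R 4.3.3). Each pair of libraries was compared by a two-sided exact binomial test on genes whose mean over the libraries reached 5 reads, and transcript shares by Fisher's exact test where the gene's mean reached 20 transcript reads and the transcript had 10, with a change of at least 10 percentage points (scipy 1.17.1), with Benjamini-Hochberg adjustment over all genes or transcripts. The scripts were tested on simulated data. Pseudocounts, filters, scaling, count types, and additive edgeR and DESeq2 1.42.0 models were alternatives; sums of transcript counts were added after seeing the data. Intervals are 95% Wilson intervals, or Clopper-Pearson based for ratios, and a count of 0 was given a limit of 3 reads. Named genes were the called members, the 10 with the most reads, the transposon-binding list, the 6 with the largest unannotated share among those with at least 20 transcript reads, and called transcripts; others are said to be chosen after their values were seen, or illustrate a cluster or list. The members and lists were chosen with earlier results of these data known. The encoded proteins were not analysed here.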

Additional observations from a re-analysis of the deposited data

Results flagged for a closer look

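ZNF460 had a log2 knockdown ratio of 2.82 without azacytidine and -5.86 with it, from 6 reads in the control, 54 in the knockdown, 29 with azacytidine and 0 with both. It was singled out because the knockdown ratio had opposite signs in the 2 pairs; the difference itself was not tested. Against azacytidine alone, the library with both was at least 9.49-fold lower, taking its 0 reads as 3. Transcript reads were 6, 7, 7 and 0.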

How the results depend on the processing

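No paired analysis was possible because each group has 1 library, so no library can be left out either, and the cause of the changes below was not tested. The 1 knockdown call became 0 with total counts as library size, a mean of at least 20 reads, no filter, uniquely assigned, full-length or summed transcript counts, and in the additive edgeR and DESeq2 models, and 6 with counts as deposited. In the main exact binomial test of gene reads, 34 of the 230 members tested had an unadjusted p under 0.05 without azacytidine and 33 with it. The share of all genes under that p was not taken, so these counts do not set the members apart from other genes. The 9 azacytidine calls became 5 with a mean of at least 20 reads, 14 as deposited, 2 uniquely assigned, 0 full-length, 5 by transcript sums and 0 in DESeq2, and stayed near at 10 in edgeR. The 1 crosswise call became 2 as deposited and 0 by uniquely assigned, full-length and transcript sums. Of cluster 4, the 8 members lower without the knockdown became 3 with a mean of at least 20 reads, 13 as deposited, 3 uniquely assigned, 0 full-length and 3 by transcript sums, and the 19 with it became 5, 0 and 10 by the last 3 counts. Its azacytidine medians, and its knockdown median with azacytidine, kept their sign under every alternative; the knockdown median of -0.04 without azacytidine became 0.24 with a mean of at least 20 reads, 0.07 with no filter, 0.03 uniquely assigned, 0.13 full-length or by transcript sums, and 0.07 with the median of length deciles removed. The member median of 0.10 for the knockdown without azacytidine reversed to -0.022 with total counts, where that of all genes was -0.09, and the azacytidine median of 0.08 was -0.10 by full-length counts and -0.02 by transcript sums. The family's share in control, knockdown, azacytidine and both was 1.03%, 1.09%, 1.05% and 0.96% by transcript sums, 1.10%, 1.13%, 1.12% and 1.00% uniquely assigned, and 1.28%, 1.25%, 1.27% and 1.15% full-length; both was lowest each time. The unannotated share was 14.6%, 15.0%, 14.5% and 16.6% full-length, and 10.3% in the knockdown and 15.3% in both uniquely assigned. The azacytidine usage calls were 0 by uniquely assigned and full-length counts, by which the transcript called here had too few reads to test. The 12 named results could be tested in 117 alternatives, of which 78 kept their side of the threshold, 39 fell short and none reversed. Alternatives in which a named gene or transcript had too few reads to test are not among the 117. Depth limits single genes: the median 95% interval of a member's log2 ratio was 1.82 to 2.29 wide.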
